A study of Mus musculus with 12 samples.

Results

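The choroid plexus and the ependyma are the epithelia of the brain ventricles, and 9 genes that mark them were followed through a cocaine experiment on the mouse nucleus accumbens, a ventral striatal reward region close to the lateral ventricle. Of these genes 6 mark the choroid plexus (Ttr, Folr1, Kl, Kcnj13, Aqp1 and Cldn2) and 3 the ciliated ependyma (Foxj1, Ccdc153 and Tmem212). The members were the probes that the array's probe-to-gene table lists under these symbols, 12 of 45281 probes, for 7 of the 9 genes and of 19057 genes with a symbol on the array. Kcnj13 and Ccdc153 had no probe under their symbol in that table and were not analysed here.

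All mice were C57BL/6J, 8 to 10 weeks old, had 15 daily intraperitoneal injections and were killed 1 h after the last. For acute mice 14 saline injections preceded 1 injection of cocaine-HCl at 20 mg/kg. The repeated schedule was 7 saline injections followed by 8 of that cocaine dose. In the withdrawal schedule 7 days of cocaine were followed by 7 days of saline and 1 cocaine challenge. Saline mice received 15 saline injections. Each group had 3 Illumina MouseWG-6 v2.0 bead arrays, and each array carried RNA from bilateral needle punches pooled over 4 mice, so single mice cannot be told apart. The array titles number the replicates 1 to 3 in every group. The labels do not say whether same-numbered arrays were processed together.

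The choroid plexus is a fold of vessels and cuboidal epithelium that secretes cerebrospinal fluid, and the ependyma is the sheet of cells, many with motile cilia, that lines the ventricle and moves the fluid. In the brain Ttr, the transthyretin carrier of thyroxine and retinol, is made above all by choroid plexus epithelium, which sits in the ventricle and not in the striatum. Foxj1 is the transcription factor that switches on the genes of motile cilia. In a tissue punch, fewer cells of a type and less RNA per cell cannot be told apart.

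Ciliary genes are often under RFX transcription factors, which bind a promoter element called the X-box, and the sequences below are shown because they place the ependymal member Ccdc153 beside measured cilia genes. A core of that element, GTTGCC, was searched on both strands in RefSeq promoters (GRCm38.p6, 250 bases before to 50 after each start, 300 bases). It was in 12.5% of 32851 promoters and in at least 1 promoter of 14.1% of 27025 genes. Among 38 cilia and ependymal genes with a promoter in the table, 17 held it (44.7%), against 3 of 31 further choroid plexus genes (9.68%). Of the 6 members with a promoter, Ccdc153 and Aqp1 held it. In the lines below the motif or its reverse complement is in capitals. The whole promoter of Ccdc153 (chr9:44240427-44240726, plus strand) is given, with windows of 40 bases around the motif for Aqp1 (chr6:55336171-55336210, plus strand), Dynlrb2 (chr8:116504947-116504986, plus strand), Pifo (chr3:106001487-106001526, minus strand) and Fam183b (chr11:58802005-58802044, minus strand).
Ccdc153: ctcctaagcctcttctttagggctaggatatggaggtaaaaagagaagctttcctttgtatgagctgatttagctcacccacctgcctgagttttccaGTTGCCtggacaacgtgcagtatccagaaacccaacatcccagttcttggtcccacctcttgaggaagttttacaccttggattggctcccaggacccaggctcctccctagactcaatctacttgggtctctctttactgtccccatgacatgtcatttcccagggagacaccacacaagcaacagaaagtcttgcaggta
Aqp1: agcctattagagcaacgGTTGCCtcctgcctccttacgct
Dynlrb2: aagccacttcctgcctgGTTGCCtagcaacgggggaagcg
Pifo: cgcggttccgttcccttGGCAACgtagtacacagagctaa
Fam183b: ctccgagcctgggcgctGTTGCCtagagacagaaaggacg
Relative to the start site the motif began at −152 in Ccdc153, −111 in Aqp1, −51 in Dynlrb2, −12 in Pifo and −67 in Fam183b. A match of these letters is a description and not a binding site.

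Levels are background-subtracted intensities in arbitrary units, as deposited after the authors' quantile normalization. A probe counted as detected on an array where the deposited detection p was under 0.05. Between 22189 and 23803 probes were detected per array, and 25478 probes detected on at least 3 of the 12 arrays were kept for the tests. Genes of striatal projection neurons were strongly expressed. All 13 kept genes of 16 on that list were detected on all 12 arrays, the brightest being Arpp21, Gng7, Ppp1r1b, which encodes a dopamine-regulated phosphatase inhibitor, and Pdyn, the dynorphin precursor, at medians of 28723.3, 15367.4, 15224.0 and 13345.9. Their summed intensity was 120383 to 121497 in acute, 118160 to 120461 in repeated, 112362 to 126278 in withdrawal and 108203 to 122443 in saline mice.

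Of the 12 member probes 3 were kept, those of Ttr, Kl and Foxj1. The other 9 gave 4 detected values among 108 probe and array pairs (3.70%), against 2.15% over all probes left out. Folr1, the folate receptor of the choroid plexus, had 1 probe detected on 1 array (17.4 on acute 2) and 1 probe detected on none. Cldn2, a pore-forming claudin of its tight junctions, had 2 probes detected on no array, none above 5.84. Aqp1, the water channel of its apical membrane, had 1 probe detected on 2 arrays, at 30.2 on acute 2 and 19.7 on withdrawal 3. A second Aqp1 probe was detected on 1 array, at 13.4 on repeated 1, and the remaining one on none. Tmem212, a membrane protein gene used as an ependymal marker, was detected on no array and reached at most 2.09. The choroid plexus members Folr1, Aqp1 and Cldn2 were therefore at or near background on nearly all arrays, while Ttr was far above it on most. No choroid plexus sample was measured, so how bright these probes are beside Ttr in that tissue is not known here.

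**Figure D1:**
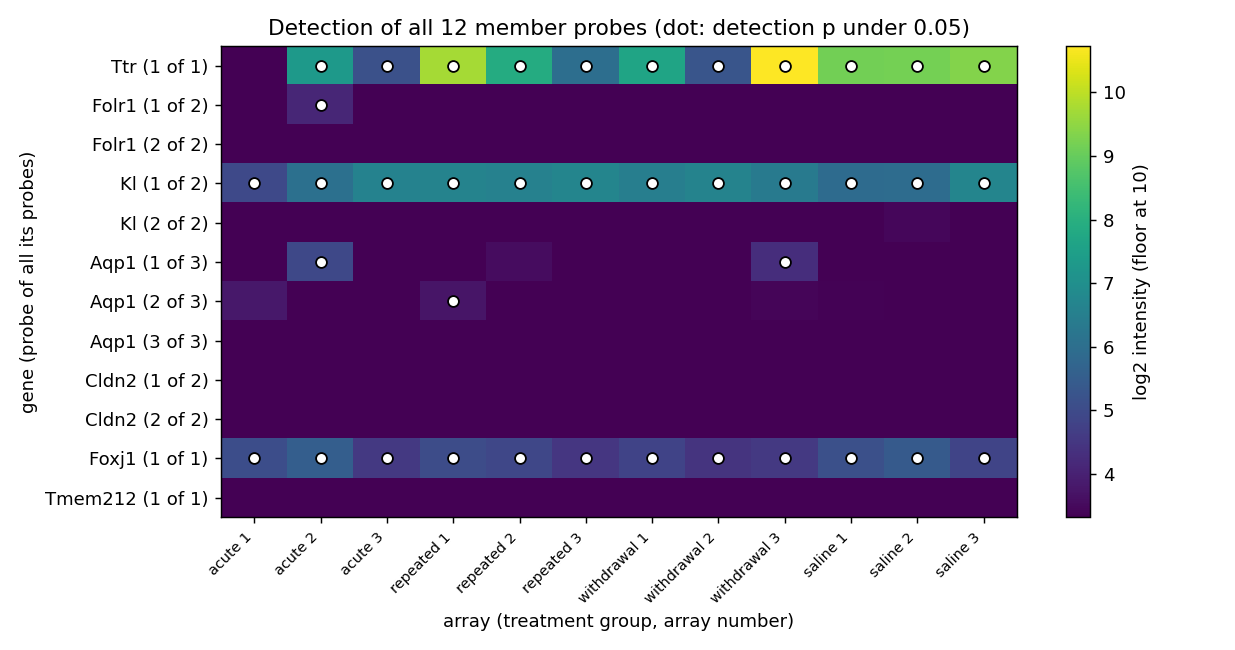
Log2 intensity (colour, values under 10 set to 10) of the 12 member probes in rows on the 12 arrays in columns, with a dot where the detection p was under 0.05. Ttr, Kl and Foxj1 each have a probe with dots on 11 or 12 arrays, and the other 9 probes have 4 dots in all.

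Ttr varied widely from array to array. Its probe (ILMN_2443330) read 9.72, 160.0 and 35.9 on acute arrays 1, 2 and 3, 857.3, 237.0 and 64.3 on repeated arrays, 200.4, 38.6 and 1696 on withdrawal arrays, and 569.4, 582.0 and 650.5 on saline arrays. The saline arrays were nearly level, while each cocaine group held at least 1 array far under them. Withdrawal 3 was the highest of the 12 and acute 1, the only array without detection, the lowest. Set against the lowest detected intensity of the acute 1 array, withdrawal 3 was at least 120-fold higher.

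The SD of log2 Ttr over the 12 arrays was 2.23, the largest of the 25478 kept probes, whose median SD was 0.22. The next probe, of the zinc transporter gene Slc30a3, had 2.14. Without acute replicate 1 Ttr ranked 5, without withdrawal replicate 3 it ranked 3, and it ranked 1 without any other single array. Taken within groups its SD was 1.94, the fifth largest (rank 5). The ratio of highest to lowest array was 16.4 in acute, 13.3 in repeated, 43.9 in withdrawal and 1.14 in saline mice. On the log2 scale the SD was 2.00 in acute, 1.87 in repeated, 2.74 in withdrawal and 0.10 in saline mice (n = 3 each). Saline was thus the only group in which the pools had like levels. Whether the spreads of the groups differ was not tested.

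**Figure D2:**
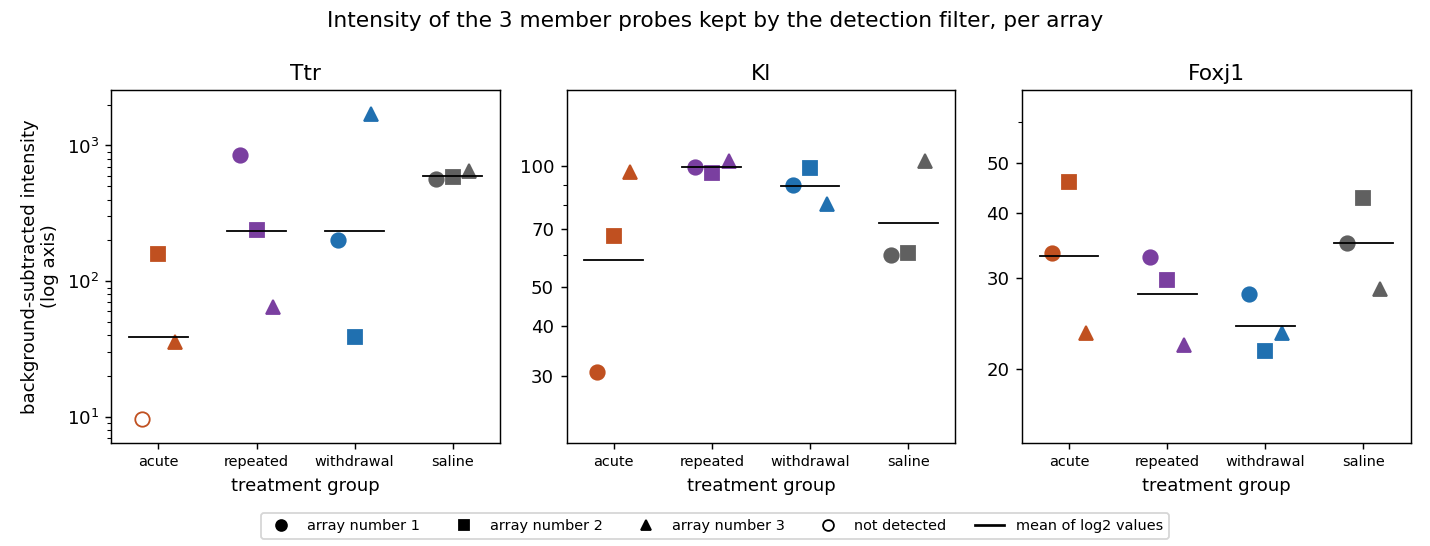
Background-subtracted intensity (log axis, a separate scale in each panel) of Ttr, Kl and Foxj1 on each array, by treatment group, with the array number as the symbol, an open symbol where the probe was not detected and a bar at the mean of the log2 values. The 3 saline arrays sit together for Ttr while the arrays of each cocaine group spread over at least 13.3-fold.

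The first cocaine injection against saline asks what a single dose leaves after 1 h. Ttr averaged 5.27 ± 2.00 on the log2 scale in acute and 9.23 ± 0.10 in saline mice (SD, n = 3 each), a log2 difference of −3.96 ± 1.40 (SE), or 15.5-fold lower. The acute 1 array enters this value at the lower limit of 10 set on intensities. All 3 acute arrays lay under all 3 saline arrays, as did 3.87% of kept probes. The difference did not pass limma's test adjusted over all kept probes by Benjamini-Hochberg (adjusted p = 1, unadjusted p = 0.0179, interval −7.08 to −0.84), and neither did any other kept probe (0%, 1132 probes with an unadjusted p under 0.05). It met the criteria of the series text, an unadjusted p under 0.05 and a change of 1.3-fold or more, which 2.77% of kept probes met. Without acute replicate 1 the log2 difference was −2.98 with limma's unadjusted p at 0.0749, and those criteria were no longer met.

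Kl, the co-receptor of the hormone FGF23 and a choroid plexus gene that neurons also express, overlapped between the groups in that comparison. Its detected probe (ILMN_1253148) read 30.7, 67.0 and 96.7 on acute arrays and 60.3, 60.8 and 103.0 on saline arrays. The lowest value was acute 1. The log2 difference was −0.31 ± 0.36 (limma adjusted p = 1, interval −1.10 to 0.49), and it was 0.16 without acute replicate 1. The second Kl probe was detected on no array. Foxj1 (ILMN_2754453) read 33.5, 46.1 and 23.6 on acute arrays and 35.1, 42.9 and 28.6 on saline arrays, not far above the lowest detected intensities of 12.9 to 16.9 per array. Its log2 difference was −0.08 ± 0.25 (limma adjusted p = 1, interval −0.64 to 0.47).

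The repeated group was set against saline to follow the response once cocaine had been given for 8 days. Ttr averaged 7.88 ± 1.87 in repeated and 9.23 ± 0.10 in saline mice on the log2 scale. Its repeated arrays lay on both sides of the saline arrays, with repeated 1 above and the other 2 under them. The log2 difference of −1.35 ± 1.40 did not pass (limma adjusted p = 0.819, interval −4.47 to 1.77), and it was −2.28 without repeated replicate 1 and −0.41 without repeated replicate 3. Kl read 99.7, 96.2 and 103.03 on repeated arrays, a narrower span than on saline arrays, and its log2 difference of 0.46 ± 0.36 did not pass (limma adjusted p = 0.738, interval −0.33 to 1.26). Foxj1 read 32.9, 29.8 and 22.3 on repeated arrays, overlapping the saline arrays, with a log2 difference of −0.33 ± 0.25 (limma adjusted p = 0.738, interval −0.88 to 0.23). None of the 3 members met the criteria of the series text, which 4.59% of kept probes met, and 0% of kept probes passed limma's adjusted test (2264 had an unadjusted p under 0.05).

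The withdrawal group, challenged after a cocaine-free week, was set against saline to follow the response to a renewed dose. Ttr averaged 7.88 ± 2.74 in withdrawal and 9.23 ± 0.10 in saline mice on the log2 scale, a difference of −1.35 ± 1.40 (limma adjusted p = 0.824, interval −4.47 to 1.78). Withdrawal 3 stood above every saline array and the other withdrawal arrays under them, and the log2 difference was −2.77 without withdrawal replicate 3 and −0.04 without withdrawal replicate 2. Kl read 89.8, 99.01 and 80.7 on withdrawal arrays, between the lowest and highest saline arrays (0.31 ± 0.36, limma adjusted p = 0.847). Foxj1 read 27.96, 21.7 and 23.5 on withdrawal arrays, all under the lowest saline array of 28.6 by a small margin, as 7.14% of kept probes were. Its log2 difference of −0.53 ± 0.25 did not pass (limma adjusted p = 0.641, unadjusted p = 0.0587, interval −1.09 to 0.02). The criteria of the series text were met by 0 members and by 3.94% of kept probes. With the replicate number as a block Foxj1 met them, at the same difference and an unadjusted p of 0.0208 (limma adjusted p = 0.435), as did 1395 of 25478 kept probes. Foxj1 also met them without saline replicate 3 (−0.68, limma unadjusted p = 0.0349) and without acute replicate 2 or 3, which change only the shared error (0.0320 and 0.0297). It met them too with only the 2 groups compared and with only probes detected on all 12 arrays (limma unadjusted p = 0.0270 and 0.0472). In those fits 1055 and 695 probes met them. In the main fit (4 groups, no block) 0% of kept probes passed limma's adjusted test (1990 had an unadjusted p under 0.05).

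The cocaine groups were set against each other to ask how earlier exposure changes the response. The comparisons with acute share its 3 arrays. Repeated minus acute was 2.61 ± 1.40 for Ttr on the log2 scale (interval −0.51 to 5.73), 0.77 ± 0.36 for Kl (interval −0.02 to 1.56) and −0.24 ± 0.25 for Foxj1. Withdrawal minus acute was 2.61 ± 1.40 for Ttr (interval −0.51 to 5.73), 0.62 ± 0.36 for Kl and −0.45 ± 0.25 for Foxj1. Without acute replicate 1, the lowest array for both genes, repeated minus acute was 1.64 for Ttr and 0.31 for Kl, and withdrawal minus acute 1.64 for Ttr and 0.15 for Kl. Without acute replicate 3 the Kl differences were 1.13 and 0.98. Without acute replicate 2 those of Foxj1 were −0.0068 for repeated and −0.21 for withdrawal, and that of Ttr in withdrawal was 1.19 without withdrawal replicate 3. With the replicate number as a block Kl in repeated against acute met the criteria of the series text (limma unadjusted p = 0.0399, adjusted p = 0.663), as did 1160 of 25478 kept probes. Withdrawal minus repeated was 0.0025 ± 1.40 for Ttr, with an interval from −3.12 to 3.12, so that 3 pools a group set no close bound on this gene. It was −0.15 ± 0.36 for Kl and −0.21 ± 0.25 for Foxj1. In these 3 comparisons limma's adjusted test was passed by 0 members and by 0.00392%, 0% and 0% of kept probes, with 1379, 1440 and 537 probes at an unadjusted p under 0.05. In the main fit (4 groups, no block) the criteria of the series text were met by 0 members and by 3.18%, 3.39% and 1.55% of kept probes. Leaving out 1 array brought members past them in places. Without acute replicate 3 Kl met them in both comparisons with acute (limma unadjusted p = 0.00651 for repeated and 0.0140 for withdrawal), as did Foxj1 for withdrawal (−0.70, limma unadjusted p = 0.0143). Without acute replicate 2 Ttr met them in both (3.64 in each, limma unadjusted p = 0.0352 and 0.0351). Ttr also met them in repeated against acute without repeated replicate 3 or withdrawal replicate 3, and in withdrawal against acute without withdrawal replicate 2, as did Kl in repeated against acute without saline replicate 3. The moderated F test over the 4 groups gave adjusted p = 0.853 for Ttr, 0.887 for Kl and 0.885 for Foxj1 (limma, 0% of kept probes passed and 1568 had an unadjusted p under 0.05). By group means Ttr was highest in saline, then withdrawal, repeated and acute. For Kl the order was repeated, withdrawal, saline and acute, and for Foxj1 saline, acute, repeated and withdrawal. No neighbours in these orders differed beyond their spread.

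**Figure D3:**
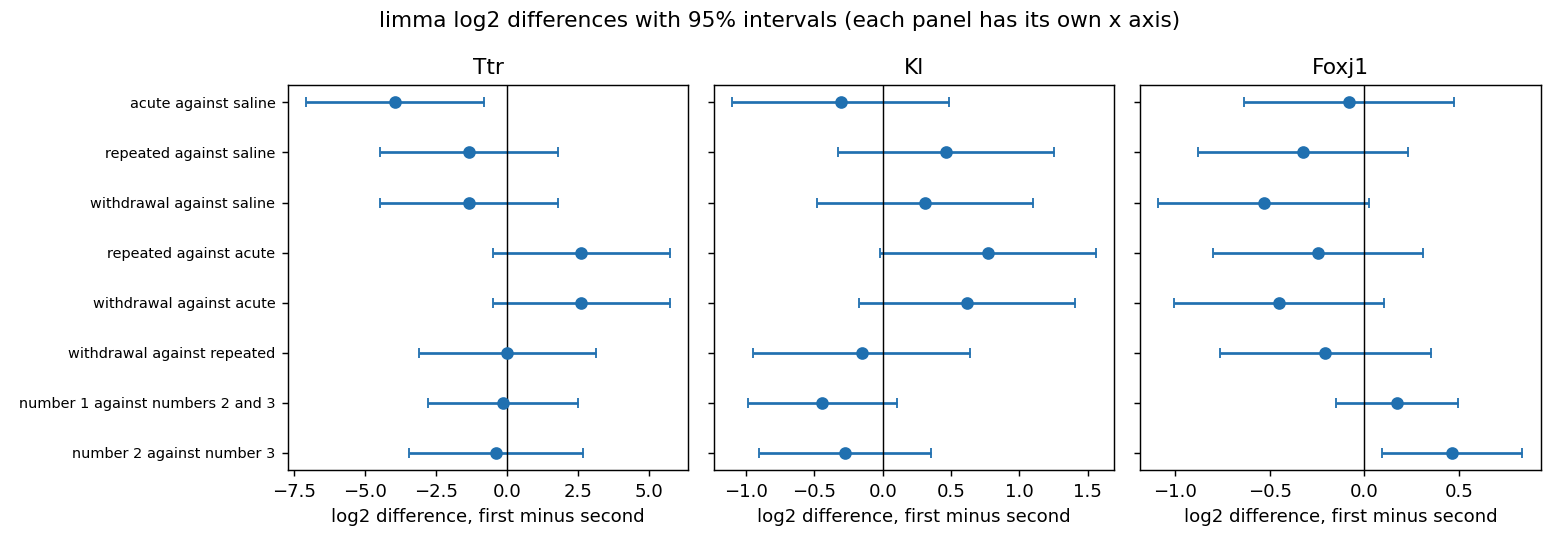
Log2 differences (points, first group minus second) with 95% intervals from limma for Ttr, Kl and Foxj1, with a separate x axis in each panel. The widest intervals are those of Ttr, and they exclude 0 without adjustment in acute against saline for Ttr and in number 2 against number 3 for Foxj1.

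By the array number of the title, Ttr showed no common level. Arrays numbered 1 ran from 9.72 to 857.3, arrays numbered 2 from 38.6 to 582.0 and arrays numbered 3 from 35.9 to 1696. With treatment group in the model, number 1 minus the mean of 2 and 3 was −0.15 ± 1.16 on the log2 scale (limma adjusted p = 0.960, interval −2.79 to 2.50). Over all kept probes 3.98% passed the adjusted test in that comparison. Kl was at −0.44 ± 0.24 (adjusted p = 0.359) and Foxj1 at 0.17 ± 0.14 (adjusted p = 0.557), so 0 of the 3 members passed. The criteria of the series text were met by 0 members and by 11.8% of kept probes.

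Foxj1 was lower on number 3 than on number 2 in most groups. It read 46.1, 29.8, 21.7 and 42.9 on the arrays numbered 2 of acute, repeated, withdrawal and saline mice, against 23.6, 22.3, 23.5 and 28.6 on the arrays numbered 3. Number 2 was the higher of the pair in acute, repeated and saline mice, and the lower in withdrawal mice. The log2 difference was 0.46 ± 0.16 (limma adjusted p = 0.436, unadjusted p = 0.0205, interval 0.09 to 0.83). It did not pass the adjusted test (0% of kept probes did, 2463 had an unadjusted p under 0.05), and Foxj1 was the 1 member that met the criteria of the series text, met by 5.65% of kept probes. It no longer met them without saline replicate 2, acute replicate 2, acute replicate 3 or repeated replicate 3 (limma unadjusted p = 0.0654, 0.0686, 0.0745 and 0.0533). The F test over the 3 numbers gave adjusted p = 0.254 for Foxj1, where 2.75% of kept probes passed.

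The levels of the 3 measured members were set against each other across arrays. Over the 12 arrays Pearson's r between log2 Ttr and Kl was 0.33 and Spearman's rho 0.09 (permutation p = 0.304 and 0.783, adjusted over 3 pairs 0.456 and 0.783). Without acute 1 and withdrawal 3, the arrays farthest from the Ttr median, r was −0.37, so its sign rested on those arrays. Between Ttr and Foxj1 r was 0.23 and rho 0.16 (permutation p = 0.477 and 0.617, adjusted 0.477 and 0.783), and r was 0.65 without the same arrays. Between Kl and Foxj1 r was −0.53 and rho −0.64 (permutation p = 0.0682 and 0.0277, adjusted 0.205 and 0.0830), and r was −0.75 without acute 1 and saline 1 (permutation adjusted p = 0.0474). On deviations from the group means r was −0.42 (permutation p = 0.173, adjusted p = 0.259), so only the version without those arrays passed. On the 8 arrays numbered 2 and 3, r was −0.42 for Ttr and Kl, 0.34 for Ttr and Foxj1 and −0.82 for Kl and Foxj1. The 4 arrays numbered 1 are too few for a value of their own.

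Further choroid plexus genes varied far less than Ttr over the arrays. Of 36 listed genes 33 had a probe under their symbol, 24 were kept and 11 were detected on all 12 arrays. The SDs of log2 intensity of the 24 ran from 0.07 to 0.75, with a median of 0.34 against 0.22 for all kept probes. All lay under the 2.23 of Ttr. Some of these genes had medians near the lower limit of 10 set on intensities, such as Sostdc1 (8.92) and Calml4 (10.2). A fall as large as that of Ttr could not show in them. The 4 with the highest levels varied little. The chloride and cation cotransporter gene Slc12a2 ranged from 2263.8 to 2805.8, the carbonic anhydrase gene Car12 from 1533.9 to 2180.4, the growth factor gene Igf2 from 1329.2 to 1610.9 and the chloride channel gene Clic6 from 876.2 to 1281.0. These 4 made up 84.1% to 87.8% of the list's summed intensity. They were detected on all 12 arrays, while the probes of Folr1, Cldn2 and Aqp1 were undetected on nearly all. Which cells their signal came from was not tested, so their steadiness need not be that of choroid plexus cells. The other 20 kept genes summed to 998.7 on acute 1, where Ttr was lowest, and to 1154.8 on withdrawal 3, where Ttr was highest, within a range over all arrays of 998.7 to 1326.6. Pearson's r with Ttr over the 12 arrays ran from −0.39 (Sulf1) to 0.56 (Clic6) with a median of 0.04, given as a description. Kcne2, a potassium channel subunit gene, and Otx2, a transcription factor gene of choroid plexus epithelium, are named after their values were seen. Kcne2 was detected on 4 arrays, at 17.05 on acute 1, 21.5 on acute 3, 28.7 on repeated 1 and 23.03 on withdrawal 3, and on no saline array. Otx2 was detected on all 9 cocaine arrays, between 14.3 and 49.2, and on saline 1 and 3, at 26.3 and 40.5. Sostdc1, Calml4, F5, Tmem72 and Ecrg4 were also detected on 4 arrays each. Which arrays these were is not listed here, so Kcne2 and Otx2 are not shown to be typical of the list. Since 9 of the 12 arrays were from cocaine mice, detection on few arrays cannot tell the treatments apart, and it was not tested.

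Ependymal and motile cilia genes were measured at moderate levels. Of 46 listed genes 42 had a probe under their symbol, 28 were kept and 17 were detected on all 12 arrays. The 4 with the highest levels were Nme5, a sperm and cilia protein gene, from 585.4 to 767.2, Spag6l, of the central apparatus of the axoneme, from 255.9 to 392.5, Rarres2, which encodes chemerin, from 269.0 to 377.3, and Rsph1, of the radial spokes, from 188.9 to 373.9. The genes shown above by sequence were lower. Dynlrb2, a dynein light chain gene, had a median of 90.3, Fam183b of 81.8 and Pifo, which acts at the primary cilium, of 45.9. SDs ran from 0.13 to 0.89, all under that of Ttr, with a median of 0.45 that was above the 0.22 of all kept probes. Pearson's r with Ttr ran from −0.31 (Sntn) to 0.71 (Nme5) with a median of 0.14. An r over 0.5 was reached by 4 of these 28 genes and 1 of the 24 choroid plexus genes, and by 3.35% of all 12732 kept genes.

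**Figure D4:**
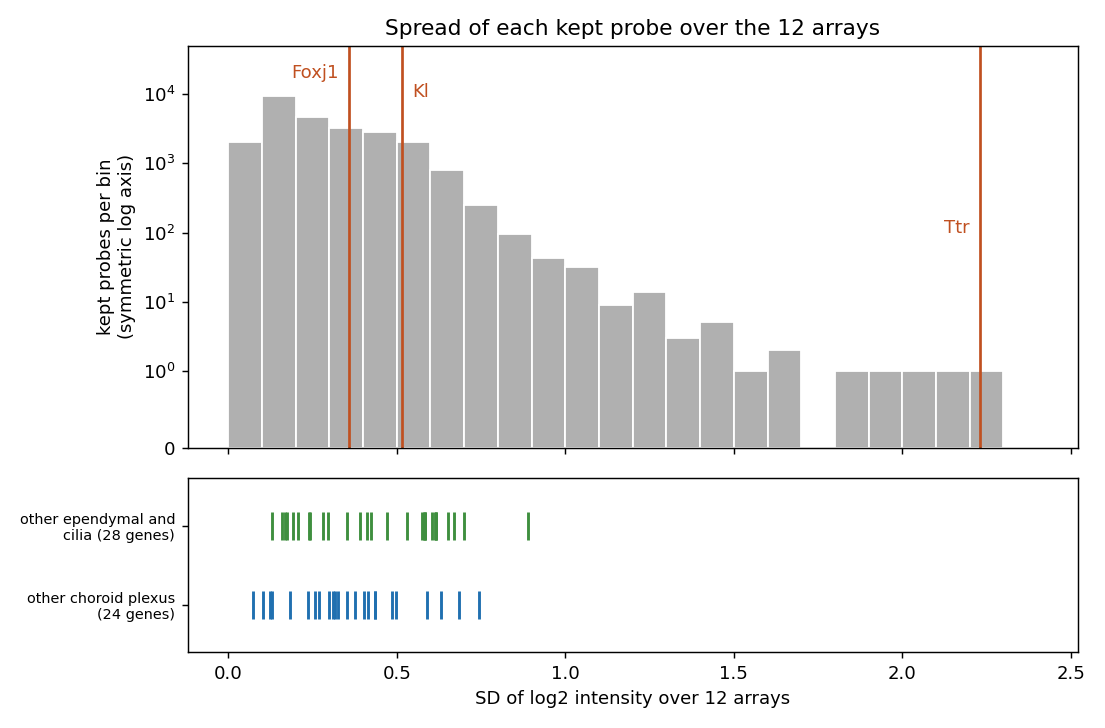
Number of kept probes (upper panel, symmetric log axis) by SD of log2 intensity over the 12 arrays, with lines at Ttr, Kl and Foxj1, and the SDs of the kept genes of both lists as ticks (lower panel). Ttr stands at 2.23 at the far right, and no tick of either list passes 0.89.

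The lists were then compared between treatments. In acute against saline the median log2 difference was −0.022 over the 24 choroid plexus genes (12 higher and 12 lower) and −0.065 over the 28 cilia genes (9 higher and 19 lower), beside −0.00031 over all kept probes. In repeated against saline the medians were 0.078 and −0.071 beside 0.0024 over all kept probes, and in withdrawal against saline 0.13 and −0.069 beside 0.0042. In all 6 treatment comparisons limma's adjusted test was passed by 0 genes of either list. The criteria of the series text were met in acute against saline by 1 of 24 choroid plexus genes, the tight junction gene Cldn1, beside 2.77% of all kept probes, and by 0 of either list in the other 2 comparisons with saline. In repeated against acute 1 choroid plexus gene (lower) and 1 cilia gene (higher) met them, beside 3.18% of kept probes. For withdrawal against acute it was 1 choroid plexus gene (lower) and 1 higher and 1 lower cilia gene, beside 3.39%. In withdrawal against repeated it was 0 choroid plexus genes and 1 cilia gene (lower), beside 1.55%. In number 1 against 2 and 3 the adjusted test was passed by 1 of 24 choroid plexus genes (Krt8) and 1 of 28 cilia genes (Ak7), near the 3.98% of all kept probes. The summed intensity of the choroid plexus list ranged from 8157.9 to 8264.4 in acute, 8281.9 to 8468.1 in repeated, 8336.1 to 8402.6 in withdrawal and 7357.1 to 8359.9 in saline mice. For the cilia list the ranges were 2842.6 to 3538.5 in acute, 2594.5 to 3414.7 in repeated, 2949.6 to 3324.6 in withdrawal and 2962.7 to 3523.5 in saline mice.

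**Figure D5:**
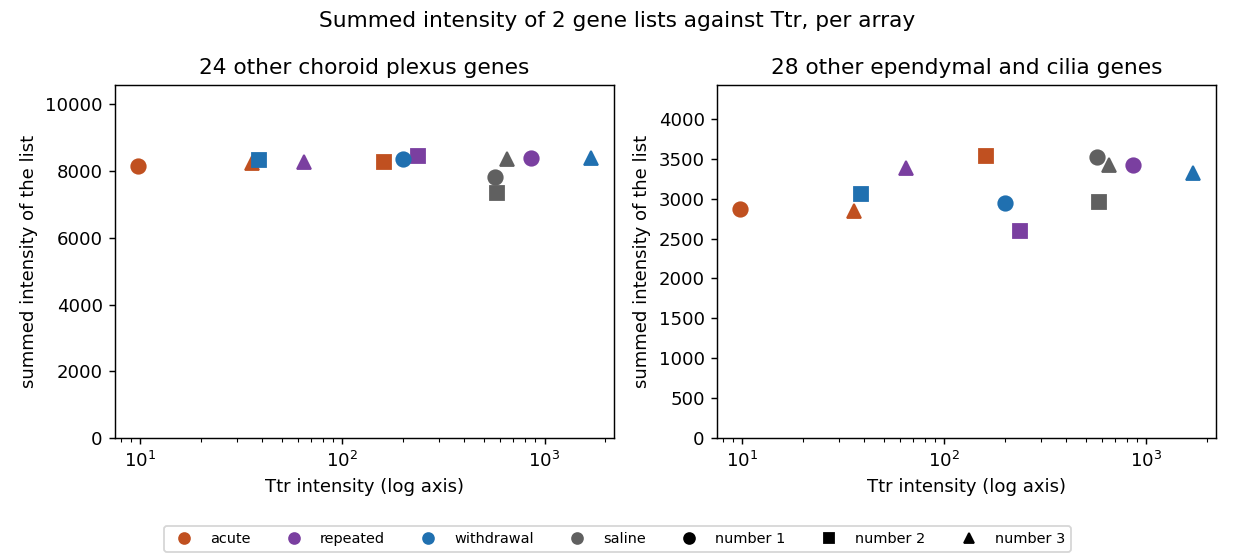
Summed background-subtracted intensity of the kept genes of the choroid plexus list (left) and the cilia list (right) against Ttr (log axis), 1 symbol per array, with colour for treatment and shape for array number. Ttr spans 9.72 to 1696 along the axis while the sums stay within 1.15-fold on the left and 1.36-fold on the right.

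The genes whose level followed Ttr most closely were outside both lists as drawn up. The cilia list did not hold Cfap206, named below, though its name is that of a cilia and flagella associated protein. Among 12729 other kept genes the highest r with log2 Ttr over the 12 arrays belonged to 2610301B20Rik (0.86), Cdo1 (0.84), Calcr (0.83), Bnipl (0.83), Abhd17a (0.82), Pcdhga7 (0.82), Tspyl5 (0.80) and Cfap206 (0.80). They are the highest of many and carry no p. Of these, Calcr, the calcitonin receptor gene, spanned the widest range. It read 18.8, 41.2 and 16.3 on acute arrays, 123.3, 33.9 and 14.3 on repeated arrays, 29.8, 35.9 and 74.5 on withdrawal arrays and 52.9, 49.1 and 83.3 on saline arrays. The levels of the 8 genes spanned 0.18 to 3.11 log2 units over the arrays, against 7.41 for Ttr. For Foxj1 the closest were Matn4 (0.94), the myelin gene Mog (0.93), Rasgrp4 (0.93), Zfp692 (0.92), Coro1b (0.91), Tmem134 (0.90), Rprml (0.89) and Gfus (0.88). Mog read 1423.8, 1544.4 and 1020.5 on acute arrays, 1300.5, 1383.3 and 975.0 on repeated arrays, 1188.9, 1113.5 and 1069.0 on withdrawal arrays and 1336.9, 1514.0 and 1171.7 on saline arrays. Number 3 was the lowest in every group for Mog, and in every group but withdrawal for Foxj1. Mog was picked for its r with Foxj1 on these same arrays, so a shared pattern follows from that choice.

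Genes of other cell types in and around the punch were set beside Ttr in the same way. The summed intensity of the kept genes differed between the highest and lowest array by 1.17-fold for 8 astrocyte genes, 1.18-fold for 6 lateral septum genes, 1.20-fold for 5 meningeal and stromal genes, 1.14-fold for 7 endothelial genes, 1.24-fold for 8 microglia genes, 1.10-fold for 6 oligodendrocyte genes and 1.88-fold for 4 blood cell genes. The brightest of each list were, in the same order, Slc1a3, Aldoc, Gja1 and Sox9, then Myo5b, Ano2, Zic1 and Trpc4, then Igf2, Dcn, Slc6a13 and Ogn, then Flt1, Slco1c1, Ly6c1 and Cldn5, then Csf1r, Cx3cr1, P2ry12 and Trem2, then Mbp, Cldn11, Mag and Mobp, and Hba-a1, Cd52, Alas2 and Slc4a1. Their genes' r with Ttr lay between −0.48 (Ogn) and 0.52 (Flt1). Igf2 stands in both the choroid plexus and the stromal list. Their part in the Ttr values was not tested.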

How the data were processed

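RNA of pooled nucleus accumbens punches was hybridised to 12 Illumina MouseWG-6 v2.0 arrays in 4 groups of 3. Background subtraction and quantile normalization of the intensity values were done by the authors in BeadStudio, per the series text. Its version is not stated there. Of the deposited intensity tables, 1 still held its background and the other equalled it minus 60.7 on every array, and both were already quantile normalized. The deposited detection p-value of each probe and array is as the file headers name it.

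For the tests, subtracted values under 10 were set to 10 before log2 was taken. A total of 25478 of 45281 probes detected (p under 0.05) on at least 3 arrays were kept. A gene takes the value of its probe of highest mean among those kept. Of the probes 34885 had 1 gene symbol, 18 several and 10378 none listed. Fits used limma 3.58.1 in R 4.3.3 (lmFit, eBayes, two-sided, 12 arrays, no covariate, or treatment group where array numbers were compared) with Benjamini-Hochberg adjustment over all kept probes at 0.05. The fits were tested on simulated data. Intervals are 95% intervals from limma. With 3 arrays a group their number limits the precision, and p-values measure the spread between pools. Correlation p-values are from two-sided permutation tests with 100000 resamples.

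Same-numbered arrays deviated together (correlations over 0.1 for every number) in repeated against saline, withdrawal against saline and repeated against acute. In these comparisons the numbers therefore count as pairs from the data, not from the labels, and the main fits without a block leave that pairing out. For number 3 the correlation was 0.065 in acute against saline, 0.036 in withdrawal against acute and 0.025 in withdrawal against repeated. In the same 3 comparisons it was 0.46, 0.40 and 0.41 for number 1 and 0.19, 0.12 and 0.25 for number 2.

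All probes of the 9 genes are given. The 8 genes most like Ttr and Foxj1 are named by Pearson's r, and from each list the 4 genes of highest level. Kcne2, Otx2, Sostdc1, Calml4, F5, Tmem72, Ecrg4, Mog's values, Krt8, Ak7 and Cldn1, and the genes at the ends of ranges, were named after their values were seen. The members, lists and the promoter motif were chosen with earlier results of these data known. Other detection filters, value scales, blocks and omissions of single arrays were tried as alternatives.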

Additional observations from a re-analysis of the deposited data

Results flagged for a closer look

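Among the 9 member probes kept out of the tests, 4 of 108 values passed the detection threshold (3.70%, against 2.15% over all probes left out). All 4 were on the 9 cocaine arrays and none on the 3 saline arrays. They are listed because no saline array had one, so that absence is how they were picked and not a result. Whether the shares of the 9 cocaine and 3 saline arrays differ was not tested. Aqp1 read 30.2 on acute replicate 2 and 19.7 on withdrawal replicate 3 with 1 probe, and 13.4 on repeated replicate 1 with another. Folr1 read 17.4 on acute replicate 2. No other probe of either gene was detected on those arrays.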

How the results depend on the processing

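In every fit tried, with other values, filters, blocks and omissions of single arrays, 0 member probes passed limma's adjusted test in any comparison, and 3 member probes were detected on at least 3 arrays at a detection p of 0.05 or 0.01. With the replicate number as a block, Ttr in acute against saline stayed at −3.96 (limma adjusted p = 0.769, unadjusted p = 0.0321), and the block changed no adjusted call of a member. By the series criteria it added Foxj1 in withdrawal against saline, Kl in repeated against acute and Foxj1 in withdrawal against acute (−0.45, limma unadjusted p = 0.0413, adjusted p = 0.580). In withdrawal against acute the deviations of same-numbered arrays correlated at 0.40 for number 1, 0.12 for number 2 and 0.036 for number 3. For Ttr in acute against saline the unadjusted p was under 0.05 in 19 of 21 alternatives (range 0.00511 to 0.147), failing without acute replicate 1 and without the arrays numbered 1. Its log2 difference became −2.53 for signals without background subtraction. Kl in repeated against acute and Foxj1 in withdrawal against saline met the series criteria in further alternatives, given above with those comparisons. The direction of small differences turned in places. Kl in acute against saline was 0.024 without the arrays numbered 1, and Ttr in number 1 against 2 and 3 was 0.10 for unsubtracted signals and 0.029 for values plus 16. With 1 array left out, acute against saline ran from −0.67 to 0.16 for Kl and from −0.32 to 0.17 for Foxj1, Ttr in withdrawal against repeated from −1.42 to 1.31, in number 1 against 2 and 3 from −1.13 to 0.78, and in number 2 against 3 from −1.49 to 0.91. The rank of Ttr by SD, with alternatives chosen after seeing the data, was 1 on both other value scales and 1 to 5 with 1 array left out. Within single groups it was 3 in acute, 11 in repeated, 1 in withdrawal and 19454 in saline mice. Without the 2 arrays farthest from the median, r became −0.37 for Ttr and Kl, and −0.75 for Kl and Foxj1, the 1 version of that pair with an adjusted p under 0.05 for Pearson's r. On deviations from group means, 0 of the 8 genes most like Ttr and 4 of the 8 most like Foxj1 were among the 8 closest. The probes meeting the series criteria in acute against saline numbered 705, from 50 (unsubtracted signals) to 1131 (without acute replicate 3), and those past the adjusted test in number 1 against 2 and 3 numbered 1013, from 201 (detection on all 12 arrays) to 1270 (unsubtracted signals). The cause of these changes was not tested. Foxj1 and all unkept members lay near the detection limit, which bounds what their values can show.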
